A study of Mus musculus with 5 samples.

Results

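The kinases and checkpoint proteins that carry a cell through mitosis were followed in pro-B cells of mice that lack the transcription factor MEF2C. The members were the 10 genes *Aurka*, *Aurkb*, *Plk1*, *Plk4*, *Nek2*, *Ttk*, *Bub1*, *Bub1b*, *Mad2l1* and *Cdc20*, chosen by gene symbol. No measured value entered this rule, but earlier results of these data were known when the members were chosen. Of these, 9 were each measured by 1 of the 23809 probe sets tested, which name 17323 genes. No probe set named *Plk1* in the annotation used, and it was not analysed here.

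Bone marrow of mice aged 9 months was sorted for pro-B cells by their surface markers (B220+IgM-CD43+CD24+), and the RNA was hybridised to 5 Affymetrix Mouse Genome 430 2.0 arrays. The comparison was of 2 arrays of Vav-Cre *Mef2c* fl/fl mice, called *Mef2c*-deficient here, with 3 arrays of control mice. Vav-Cre is active across the haematopoietic system, so other blood lineages of these mice also lost *Mef2c*. The methods list *Mef2c* fl/fl, *Mef2c* fl/+ and Vav-Cre *Mef2c* fl/+ mice of like age as controls, and the labels do not say which of these a control array held, so a control may carry Cre and 1 deleted allele. The methods call the samples independent, but the labels do not name the mouse behind each array. If arrays shared mice, the p-values would measure technical spread only.

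Entry into mitosis is driven by kinases that act at centrosomes, kinetochores and the spindle. Aurora A and PLK4 work at centrosomes and centrioles, NEK2 helps the centrosomes to part, and Aurora B corrects faulty attachments of chromosomes to microtubules. The spindle checkpoint holds the cell before anaphase until each kinetochore is attached. TTK and BUB1 start its signal at the kinetochore, and MAD2 and BUBR1, the products of *Mad2l1* and *Bub1b*, bind CDC20 and so keep the anaphase promoting complex (APC/C) inactive. Large pro-B cells divide rapidly under interleukin-7, and transcripts of these genes accumulate in dividing cells, mostly late in the cell cycle.

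Promoters of cell cycle genes are known for CCAAT boxes and for the cell cycle genes homology region (CHR), and MEF2C binds an AT-rich motif. The windows shown are the promoters of the called *Nek2* and *Bub1b*, of *Bub1*, which differed most in fold, of *Cdc20*, which holds both elements close to its start, and of *Plk4*, the 1 member with a MEF2 motif. Each line gives the 120 bases before the start of the RefSeq transcript (GRCm38.p6), 5′ to 3′ on the gene's strand, and for *Bub1b* and *Bub1* also a short stretch after the start. Capitals mark CCAAT or its complement ATTGG, the CHR (TTTGAA or TTCGAA, both strands) and, in *Plk4*, the MEF2 motif.
Nek2, chr1:191821353-191821472, plus strand: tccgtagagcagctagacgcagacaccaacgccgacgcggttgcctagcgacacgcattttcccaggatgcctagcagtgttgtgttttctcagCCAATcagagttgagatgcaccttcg
Bub1b, chr2:118598091-118598210, plus strand: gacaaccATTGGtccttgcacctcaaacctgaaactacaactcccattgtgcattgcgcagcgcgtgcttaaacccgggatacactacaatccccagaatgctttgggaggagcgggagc
Bub1b, chr2:118598245-118598260, plus strand: gttaaaTTTGAAactt
Bub1, chr2:127831860-127831979, minus strand: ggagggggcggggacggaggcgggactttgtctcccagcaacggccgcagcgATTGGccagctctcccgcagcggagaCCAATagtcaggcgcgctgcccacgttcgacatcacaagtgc
Bub1, chr2:127831834-127831851, minus strand: ggggaaTTCGAAtcgccg
Cdc20, chr4:118437344-118437463, minus strand: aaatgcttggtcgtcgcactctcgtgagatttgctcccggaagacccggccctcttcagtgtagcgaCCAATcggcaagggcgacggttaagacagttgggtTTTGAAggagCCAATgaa
Plk4, chr3:40799831-40799950, plus strand: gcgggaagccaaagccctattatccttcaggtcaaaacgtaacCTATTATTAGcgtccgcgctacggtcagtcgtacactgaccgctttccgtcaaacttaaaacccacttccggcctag

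RefSeq promoter windows, from 250 bases before to 50 after the start, were found for 8 of the 9 measured members, all but *Aurkb*. A CCAAT box on either strand stood in 6 of these 8 windows, against 37.4% of 32851 windows of the same length. The CHR stood in 5 of 8, in *Aurka*, *Bub1*, *Bub1b*, *Cdc20* and *Ttk*, against 19.2% of all windows, and in *Cdc20* it lay 18 to 13 bases before the start between a pair of CCAAT boxes. The MEF2 motif was found only in *Plk4*, 77 to 68 bases before its start, and in 3.19% of all windows. These matches describe letters in a window, and no binding was measured here.

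Values are the deposited intensities, which stand on a linear scale whose base appears to be e where a base of 2 is usual. Folds are of the deposited values unless named as signal, and a deposited fold of 2 is then a 1.62-fold difference in signal. A gene was called where its deposited fold was at least 2 and its unadjusted p from limma at most 0.05. The paper gives these thresholds for its pre-B arrays and does not name the scale of the fold. If signal was meant, the rule is looser here, since a fold of 2 in signal is 2.72 in deposited value, and 2025 probe sets were called lower at that fold against 3206 by the rule used. Across all probe sets 0 had an adjusted p under 0.05 (the smallest was 0.102) while 7038 (29.6%) had an unadjusted p under 0.05, so every call below rests on an unadjusted p. The methods' t-test gave 14 at an adjusted p under 0.05, the smallest at 4.47e-43. On 5 arrays so small a value needs almost no spread within the groups. In 42.7% of probe sets at least 2 arrays hold the same value, and the part of such ties in these 14 was not tested. *Mef2c* itself was measured at 7379 and 6219 on the *Mef2c*-deficient arrays, against 14010, 20850 and 17220 on the control arrays. Its log2 fold change of −1.34 (SE 0.28, adjusted p = 0.103) was called. Among the brightest of 10 groups of probe sets by mean level, to which it belongs, 24.5% had a lower log2 fold change. *Mef2c* lost its call under the quantile, loess and housekeeping scalings given below. The position of its probe set relative to the deleted exon was not stated in the sources.

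The arrays also differed in their makeup. *Mef2c*-deficient replicate 2 carried T cell transcripts, with *Cd3e* at 366 on *Mef2c*-deficient replicate 1 and 13840 on replicate 2, against 232.5 to 387.1 on the control arrays. The 9 measured T and NK cell markers (of 13 listed) summed to 2254 and 39780 on *Mef2c*-deficient replicates 1 and 2, against 4617 to 5095 on control arrays. The same array was low in the B-lineage factors *Ebf1* (3026, against 29290 to 35420 on control arrays) and *Blnk* (2661, against 18900 to 41780), while *Cd79a*, *Cd79b*, *Vpreb3* and *Igll1* were present on all 5 arrays. Summed over 13 measured pro-B markers (of 16 listed) it held 751346, *Mef2c*-deficient replicate 1 held 1447136, and the control arrays 1081156 to 1798322. For *Ebf1*, the paper reports lower expression in *Mef2c*-deficient pre-B cells, by array and quantitative PCR, and names it a candidate direct target of MEF2C. Loss of *Mef2c* and a different makeup cannot be told apart for its low level here. The summed level of 10 neutrophil and myeloid markers was 2501042 and 5714503 in *Mef2c*-deficient samples and 2323254 to 4837095 in control samples. Of these 10, 0 were above their control mean on *Mef2c*-deficient replicate 1 and 8 on replicate 2. The 4 measured erythroid markers (of 7 listed) were above their control mean on both *Mef2c*-deficient arrays and summed to 1502 and 4625 there, against 739 to 872 on control arrays. Of 6 measured plasmacytoid dendritic cell markers (of 9 listed), 3 were above their control mean on *Mef2c*-deficient replicate 1 and 5 on replicate 2, with sums of 155599 and 126590, against 98634 to 259659 on control arrays. No marker was at 0. The 15 hybridisation controls are spiked in at a set amount. On *Mef2c*-deficient replicate 1 they lay at a median of 2.69 above the control mean on the log2 scale. The median was 0.72 on replicate 2 and −0.87 to 0.64 on the control arrays. In bulk RNA, fewer dividing cells and less RNA per cell cannot be told apart.

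All 9 measured members were at a log2 fold change below 0 in *Mef2c*-deficient pro-B cells, and 3 of them fell by the call rule, *Aurkb*, *Nek2* and *Bub1b* (33.3%). None rose, and none of the 9 had an adjusted p under 0.05. Over all probe sets 13.5% were called lower and 10.1% higher. The median log2 fold change of the members was −1.50, and that of all probe sets was 0.19. The 2 *Mef2c*-deficient arrays lay below all 3 control arrays for 7 of 9 members, as for 23.5% of all probe sets, and the exceptions were *Ttk* and *Cdc20*.

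**Figure D1:**
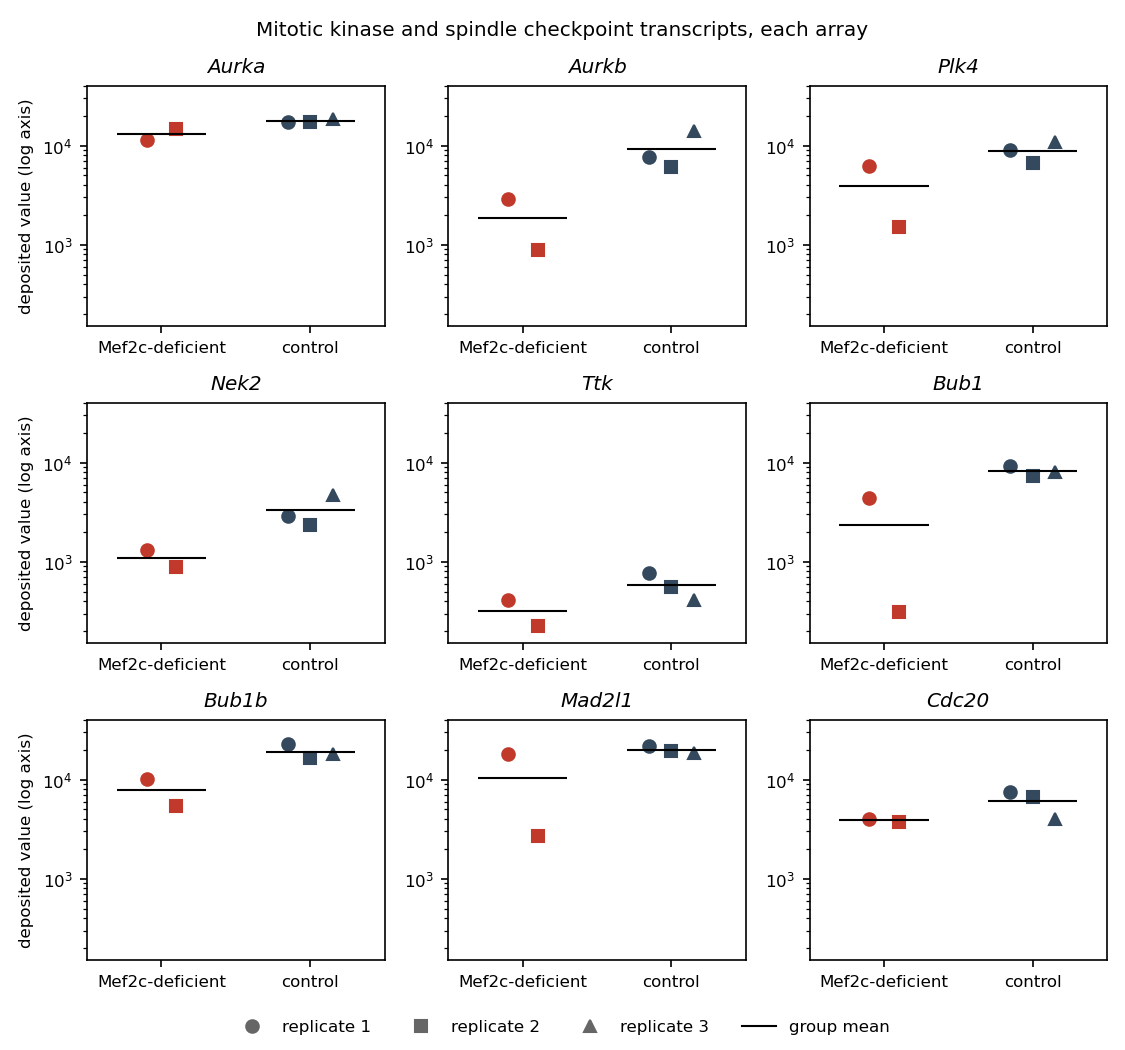
Deposited value (log axis) of each measured member on each array, with *Mef2c*-deficient arrays in red on the left and control arrays in dark blue on the right. Symbols give the replicate number and bars the mean of each group. The red square, *Mef2c*-deficient replicate 2, is the lowest point of the panel for all members except *Aurka*.

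The Aurora kinases differed in how far their levels stood apart. *Aurkb* (probe set 1424128_x_at), the catalytic subunit of the chromosomal passenger complex, measured 2867 and 883.1 on the *Mef2c*-deficient arrays, against 7603, 6030 and 14020 on the control arrays. The groups did not overlap, and both *Mef2c*-deficient arrays were low, replicate 1 by 3.01-fold and replicate 2 by 9.77-fold below the geometric mean of the control arrays. Folds here and below are of geometric means, as fitted on the log2 scale, while a mean given with its SD is arithmetic. Its level was 1875 ± 1403 (SD, n = 2 arrays) in *Mef2c*-deficient and 9219 ± 4234 (SD, n = 3 arrays) in control pro-B cells. *Aurkb* fell by 2.44 on the log2 scale (SE 0.65, 95% interval −4.12 to −0.76), a 5.42-fold difference in deposited value and 3.23-fold in signal, with adjusted p = 0.116. Its probe set and that of *Cdc20* (suffix x_at) are of a kind whose probes can also match other transcripts, and those of *Nek2*, *Plk4* and *Bub1b* (s_at) can match several related ones.

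*Aurka* (1424511_at), the centrosomal Aurora kinase that builds the spindle poles, measured 11510 and 14710 on the *Mef2c*-deficient arrays, against 17370, 17370 and 18400 on the control arrays. Here too both *Mef2c*-deficient arrays were below all controls, but only 1.54-fold and 1.20-fold below the control geometric mean, and *Aurka* was the 1 member that was higher on *Mef2c*-deficient replicate 2 than on replicate 1. The log2 fold change of *Aurka* was −0.44 (SE 0.24, 95% interval −1.07 to 0.18, adjusted p = 0.253) and did not pass. The log2 ratio of *Aurkb* to *Aurka* within an array was −2.01 and −4.06 in *Mef2c*-deficient samples, against −1.19, −1.53 and −0.39 in control samples. The groups differed by −1.99, with p = 0.2 in a two-sided exact permutation test, the smallest p that 2 against 3 arrays allow (adjusted p = 0.6 over 3 such pairs). The level of 1 probe set is not comparable with that of another, so only the change of this ratio between groups can be read.

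*Nek2* (1437580_s_at), the centrosomal kinase that loosens the link between centrosomes, was the most even of the called members between the 2 *Mef2c*-deficient arrays. It measured 1304 and 883 on them, against 2923, 2352 and 4719 on the control arrays, with no overlap and with both *Mef2c*-deficient arrays low. *Nek2* averaged 1094 ± 298 (SD, n = 2) in *Mef2c*-deficient and 3331 ± 1235 (SD, n = 3) in control pro-B cells. It fell by 1.57 on the log2 scale (SE 0.40, 95% interval −2.61 to −0.53), or 2.13-fold in signal, with adjusted p = 0.111.

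*Plk4* (1419838_s_at), which starts centriole duplication, measured 6239 and 1509 on the *Mef2c*-deficient arrays, against 8975, 6644 and 10980 on the control arrays. Both *Mef2c*-deficient arrays were below the lowest control, replicate 1 narrowly and replicate 2 by a wide margin. The log2 fold change of *Plk4* was −1.50 (SE 0.67, 95% interval −3.23 to 0.22, adjusted p = 0.203), past the fold threshold but not the p threshold. Within an array, the log2 ratio of *Plk4* to *Nek2* was 2.26 and 0.77 in *Mef2c*-deficient samples and 1.62, 1.50 and 1.22 in control samples, a difference of 0.07 (two-sided exact permutation p = 1).

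*Ttk* (1442594_at), also known as MPS1, the kinase that recruits the checkpoint proteins to unattached kinetochores, was the dimmest member. It measured 412.4 and 223.5 on the *Mef2c*-deficient arrays, against 776.9, 555.6 and 412.4 on the control arrays. *Mef2c*-deficient replicate 1 and control replicate 3 had the same value, so the groups touched. Such ties are common in the deposited table, where 42.7% of probe sets have 1 value on at least 2 arrays. *Ttk* had a log2 fold change of −0.89 (SE 0.43, 95% interval −1.99 to 0.22, adjusted p = 0.224) and did not pass.

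Among the checkpoint genes, *Bub1b* (1447363_s_at), which encodes BUBR1, was the 1 that was called. It measured 10260 and 5374 on the *Mef2c*-deficient arrays, against 22920, 16430 and 18150 on the control arrays. Both *Mef2c*-deficient arrays were low and clear of the controls, with means of 7817 ± 3456 (SD, n = 2) in *Mef2c*-deficient and 19166 ± 3362 (SD, n = 3) in control pro-B cells. *Bub1b* fell by 1.35 on the log2 scale (SE 0.37, 95% interval −2.32 to −0.39), or 1.92-fold in signal, with adjusted p = 0.118.

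*Bub1* (1424046_at), the kinase that marks the inner centromere and brings BUBR1 to the kinetochore, had the lowest fold change of the members and the widest spread. It measured 4432 and 311.2 on the *Mef2c*-deficient arrays, against 9291, 7376 and 7966 on the control arrays. The control arrays were close together while the 2 *Mef2c*-deficient arrays stood 14.2-fold apart, 1.84-fold and 26.3-fold below the control geometric mean. The log2 fold change of *Bub1* was −2.80 (SE 1.14, 95% interval −5.74 to 0.14, adjusted p = 0.18), which did not pass. The log2 ratio of *Bub1* to *Bub1b* within an array was −1.21 and −4.11 in *Mef2c*-deficient samples and −1.30, −1.16 and −1.19 in control samples, so that *Mef2c*-deficient replicate 2 alone stood apart (difference −1.45, two-sided exact permutation p = 0.4).

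*Mad2l1* (1422460_at), which encodes the checkpoint effector MAD2, showed the same split between the *Mef2c*-deficient arrays. It measured 18140 and 2696 on them, against 21730, 19460 and 18470 on the control arrays. Replicate 1 was only just under the lowest control, 1.09-fold below the control geometric mean, and replicate 2 was 7.36-fold below it. The log2 fold change of *Mad2l1* was −1.50 (SE 0.83, 95% interval −3.65 to 0.64, adjusted p = 0.258) and did not pass.

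*Cdc20* (1439394_x_at), the activator of the APC/C that the checkpoint restrains, differed least among the checkpoint genes. It measured 4036 and 3715 on the *Mef2c*-deficient arrays, against 7480, 6754 and 3965 on the control arrays. The groups overlapped, since control replicate 3 lay between the 2 *Mef2c*-deficient arrays. The log2 fold change of *Cdc20* was −0.60 (SE 0.36, 95% interval −1.52 to 0.33, adjusted p = 0.281) and did not pass.

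The 2 *Mef2c*-deficient arrays were not alike over the members. For 8 of 9 members replicate 2 was lower than replicate 1, and the median fold below the control geometric mean was 3.61 on replicate 2 and 1.54 on replicate 1. Without *Mef2c*-deficient replicate 2, 0 of 9 members were called and the member median was −0.62, and without *Mef2c*-deficient replicate 1, 6 were called, with *Bub1*, *Plk4* and *Mad2l1* added and a median of −1.85. The remaining *Mef2c*-deficient array is assumed in these fits to vary like the control arrays. Every member kept a negative log2 fold change in both. Replicate 2 is the array with T cell transcripts, the highest erythroid sum, the highest neutrophil and myeloid sum, and low *Ebf1* and *Blnk*. The part of other cells in the levels of the members was not tested.

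Bright probe sets were lower on the *Mef2c*-deficient arrays as a rule, and the members are bright. With all probe sets split by mean level into 10 groups of like size, 5 members were in group 9, 3 in group 10, the brightest, and *Ttk* in group 7. In groups 9, 10 and 7, in this order, 38.5%, 31.8% and 16.1% of probe sets were called lower, so the 33.3% of the members is near the share of probe sets of like level. A negative log2 fold change was found for 88.3% of group 9, 91% of group 10 and 54.9% of group 7, and both *Mef2c*-deficient arrays lay below all controls for 61.2%, 61.2% and 27%. The median log2 fold change was −1.07, −0.90 and −0.20. Of the members, 7 of 9 were below the median of their own group, and *Aurka* and *Cdc20* were above it.

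**Figure D2:**
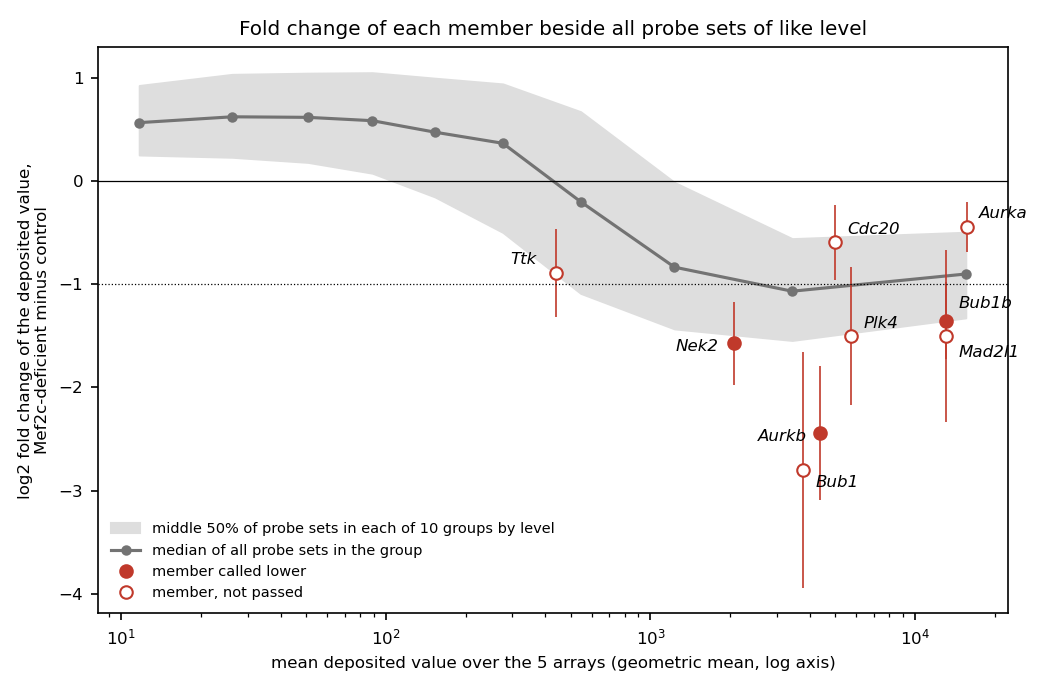
Log2 fold change of the deposited value, *Mef2c*-deficient minus control (vertical axis), against the geometric mean deposited value over the 5 arrays (horizontal log axis). Red points are members with their standard errors, filled where called, and the grey line and band are the median and the middle 50% of all probe sets in each of the 10 groups by level. *Aurkb* at −2.44 and *Bub1* at −2.80 lie farthest below the line of bright probe sets, which is near −1, while *Aurka* and *Cdc20* lie above it.

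The calls also depended on how the arrays were scaled. As deposited, the arrays did not share the same distribution of values. When the arrays were quantile normalized once more, or scaled by cyclic loess or on housekeeping genes, *Aurkb* was the 1 member still called lower, and *Aurka* and *Cdc20* turned to positive log2 fold changes that did not pass. *Aurka* was then at 0.44, 0.56 and 0.35 and *Cdc20* at 0.35, 0.40 and 0.20 under the quantile, loess and housekeeping scalings. The housekeeping scaling rests on 8 genes, of which 5 were themselves called lower before it, and it adds 0.80 to every log2 fold change. With each array centred on its median, 6 members were called lower. Of the alternatives run, *Aurkb* lost its call only with the methods' t-test and without *Mef2c*-deficient replicate 2. *Bub1b* lost its call at a fold of 2 in signal, where *Aurkb* and *Nek2* kept theirs. *Bub1* had a log2 fold change between −3.03 and −1.85 under the 4 scalings and was called under median centring.

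**Figure D3:**
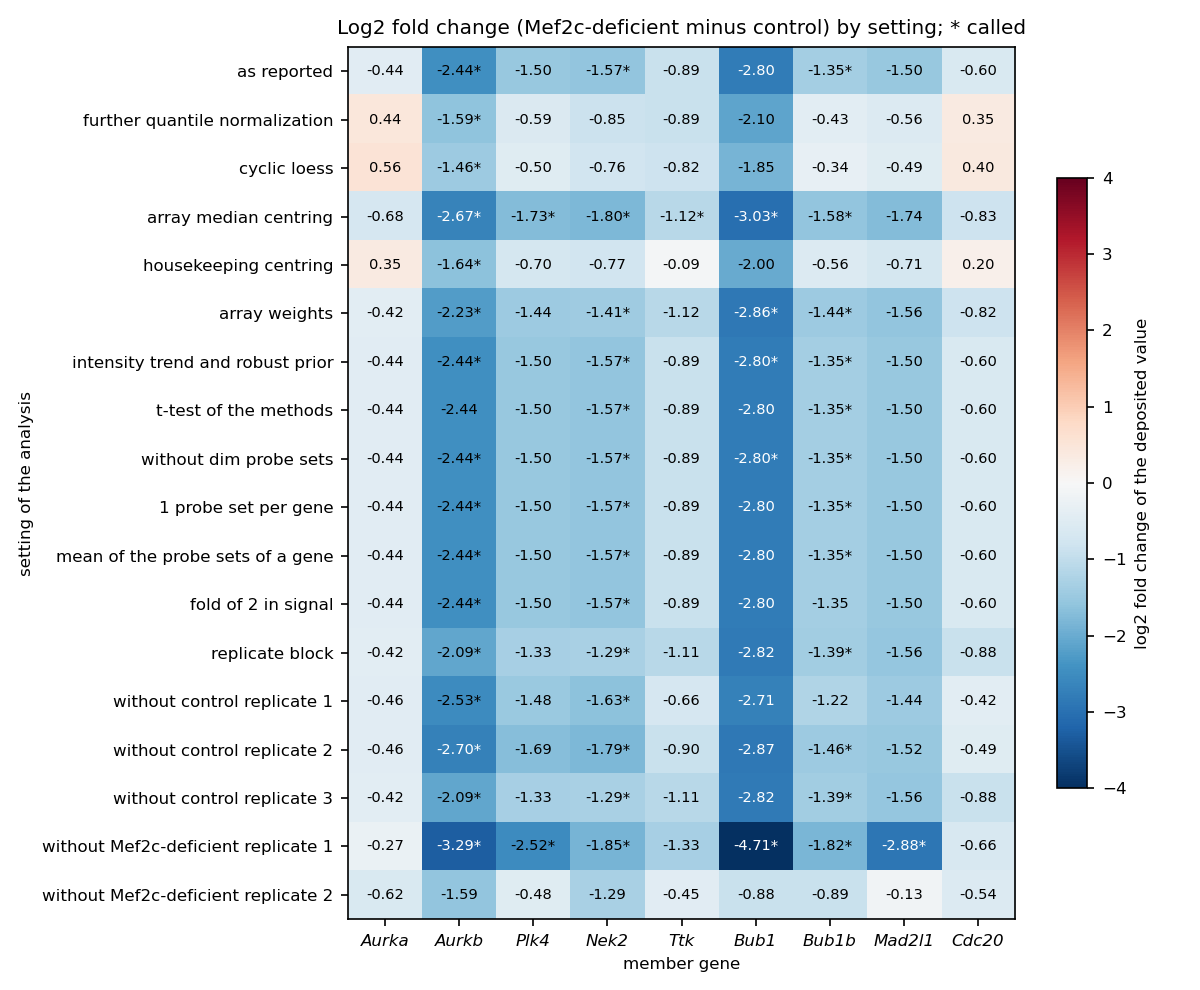
Log2 fold change (*Mef2c*-deficient minus control) of each member (columns) under each setting of the analysis (rows), with stars where the member was called. Blue cells are lower and red cells higher in *Mef2c*-deficient samples. *Aurkb* is starred in all rows except the methods' t-test and the fit without *Mef2c*-deficient replicate 2, a row with no star.

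The partners of the members were compared from lists of known mitotic genes, 7 lists of which 57 genes were measured. Of these, 21 fell (36.8%) and none rose, and 54 were at a log2 fold change below 0 (median −1.14). Like the members they are mostly bright, with 52 of 57 in groups 8 to 10 by level, and their share of calls is likewise near that of probe sets in groups 9 and 10. Under the quantile, loess and housekeeping scalings 3 of 57 were called lower and 44, 39 and 43 stayed negative. *Trip13* and *Anapc1* were called lower under these 3 and under median centring. *Bub3* kept its call under the quantile scaling and *Nek9* under the housekeeping scaling. *Zw10*, not called before rescaling (−0.59), was called lower under loess (−1.02). The other companion genes called lower before rescaling lost their call under all 3. Over all alternatives run, the number called lower ranged from 0 to 6 of the 6 passenger complex and Aurora A genes, 1 to 7 of the 9 other checkpoint genes, 0 to 7 of the 15 APC/C genes, 0 to 9 of the 10 mitotic entry genes, 0 to 5 of the 8 kinase relatives and 0 to 4 of the 7 centriole genes.

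The passenger complex and the partners of Aurora A had 5 of 6 measured genes called lower, all in level groups 9 and 10, where 38.5% and 31.8% of probe sets were called lower. *Tpx2*, the activator of Aurora A on the spindle, measured 15780 and 4018 on the *Mef2c*-deficient arrays, against 40230, 39940 and 30310 on the control arrays, and fell by 2.20 (log2, SE 0.63, adjusted p = 0.12). *Bora*, the cofactor through which Aurora A activates PLK1, fell by 1.38, *Incenp*, the scaffold of the passenger complex, by 1.34, *Hmmr*, a spindle pole protein, by 1.19 and *Birc5*, which encodes survivin, by 1.14. *Cdca8*, the borealin subunit, was at −1.75 (SE 0.68, adjusted p = 0.17) and missed the p threshold. None of the 5 called genes stayed called under the quantile, loess or housekeeping scalings, and 1 of the 6 was called at a fold of 2 in signal and 1 without control replicate 1.

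Among 9 other spindle checkpoint genes 4 fell (44.4%) and 5 did not pass. Of all probe sets 13.5% were called lower, and of level groups 9 and 10 38.5% and 31.8%. *Trip13*, the ATPase that remodels MAD2, measured 4570 and 2233 on the *Mef2c*-deficient arrays, against 19980, 13720 and 16130 on the control arrays, with both *Mef2c*-deficient arrays far below the controls. It fell by 2.36 on the log2 scale (SE 0.40, adjusted p = 0.102). *Bub3*, the adaptor that carries BUB1 and BUBR1 to the kinetochore, fell by 1.83, *Kntc1*, a subunit of the kinetochore complex that recruits dynein, by 1.78, and *Spdl1*, the dynein adaptor spindly, by 1.12.

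The APC/C, the target of the checkpoint, had 3 of 15 measured genes called lower (20%), *Anapc1*, *Cdc23* and *Cdc26*, and none called higher. The share over all probe sets was 13.5%, and in level groups 9 and 10 it was 38.5% and 31.8%. *Anapc1*, its largest subunit, measured 415 and 64.4 on the *Mef2c*-deficient arrays, against 1702, 982.2 and 1491 on the control arrays, and fell by 3.05 on the log2 scale (SE 0.85, adjusted p = 0.118). *Cdc23* fell by 1.16 and *Cdc26* by 1.05. *Anapc2*, the cullin subunit, had a log2 fold change of 0.39 that did not pass, and it was called higher under the quantile, loess and housekeeping scalings, at 1.31, 1.40 and 1.19. *Espl1*, the separase that the APC/C releases from securin, fell by 2.09, while securin (*Pttg1*) was at −1.54 and did not pass.

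Of 10 measured kinases, cyclins and phosphatases of mitotic entry 3 fell (30%), *Wee1*, *Ppp2r2d* and *Cdc25c*, by 1.69, 1.57 and 1.56. The share called lower was 13.5% over all probe sets and 38.5% and 31.8% in level groups 9 and 10. *Wee1*, which inhibits CDK1, measured 1291 and 1855 on the *Mef2c*-deficient arrays, against 4046, 4581 and 6731 on the control arrays, so that here replicate 2 was the higher of the 2. *Cdk1* itself measured 34840 and 4087 on the *Mef2c*-deficient arrays, against 60300, 56110 and 32140 on the control arrays. The groups overlapped and its log2 fold change of −2.00 (SE 0.97, adjusted p = 0.226) did not pass.

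Among relatives of the member kinases, 4 of 8 measured genes were called lower (50%), against 13.5% of all probe sets and 38.5% of level group 9. *Nek9*, the kinase upstream of NEK6 and NEK7, measured 3217 and 2039 on the *Mef2c*-deficient arrays, against 8910, 8837 and 10310 on the control arrays, with close values within each group. It fell by 1.86 on the log2 scale (SE 0.30, adjusted p = 0.102), *Melk* by 1.55, the Polo-like kinase *Plk2* by 1.27 and *Vrk1*, a histone and chromatin kinase, by 1.05. *Nek6* was at 171.9 and 7985 on the *Mef2c*-deficient arrays and 645.6 to 883.5 on the control arrays, a split in opposite directions. Of the 7 centriole duplication genes around *Plk4*, 1 fell (14.3%). The share was 13.5% over all probe sets and 38.5% and 31.8% in level groups 9 and 10. The gene called was *Cep192*, which brings PLK4 to the centriole, by 1.23, and *Cep152* at −2.42 (SE 1.09, adjusted p = 0.205) did not pass.

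**Figure D4:**
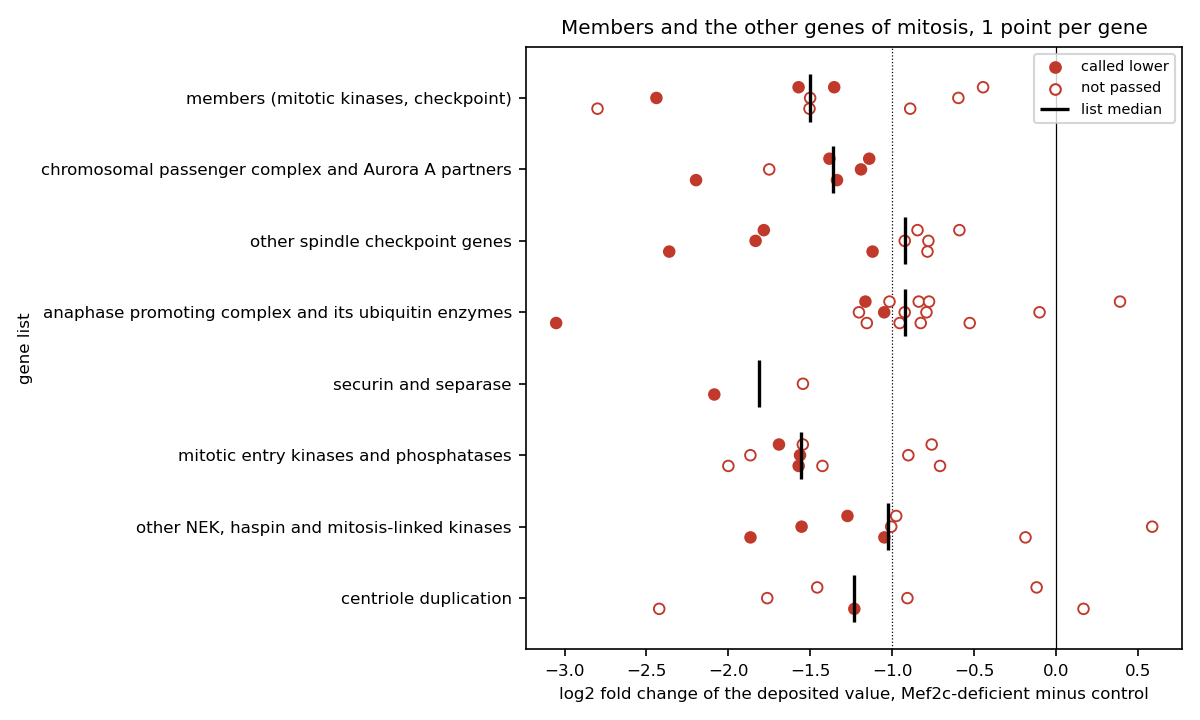
Log2 fold change of the deposited value, *Mef2c*-deficient minus control (horizontal axis), of each measured gene, by list (vertical axis). Filled points were called lower, open points did not pass and black bars are list medians, which lie between −1.82 for securin and separase and −0.92 for the other checkpoint genes and the APC/C.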

How the data were processed

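RNA of sorted pro-B cells was measured on 2 *Mef2c*-deficient and 3 control arrays. The authors applied robust multiarray averaging (background adjustment, quantile normalization and probe set summary) and deposited intensity values on a linear scale, with 314 to 430 values per array above 65535. The deposited arrays nevertheless do not share the same distribution. Their medians were 238 and 204 on the *Mef2c*-deficient arrays, against 182 to 193 on the control arrays. Lower quartiles were 65.4 and 52.8, against 38.7 to 42.9. The part of this in the fold changes was not tested. Since natural logarithms of the deposited values run from 1.15 to 14.7, the base appears to be e. The deposited table held 23835 probe sets, and 26 array controls were left out. Gene symbols came from the platform annotation (17621 probe sets with 1 symbol, 516 with several, 5672 with none). Log2 values were fitted with lmFit and eBayes of limma 3.58.1 in R 4.3.3 and adjusted by Benjamini-Hochberg over all probe sets, after the script was tested on simulated data. The fold and p thresholds are those the paper uses for pre-B arrays. A gene was represented by its probe set of highest mean. The rule for named genes took all members, *Mef2c* and up to 4 called genes per list, and *Birc5*, *Cdca8*, *Cdk1*, *Anapc2*, *Pttg1*, *Nek6*, *Zw10* and *Cep152* were named after their values were seen. Members and lists were chosen with earlier results of these data known. Precision is limited by the number of arrays. Alternatives covered scaling, weights, tests, filters, probe set choice, a replicate block and each array left out.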

Additional observations from a re-analysis of the deposited data

How the results depend on the processing

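Members called lower numbered 3, with 1 after the further quantile normalization, 1 after cyclic loess, 1 with housekeeping centring and 6 with median centring, and 0 to 6 with 1 array left out. Companion genes called lower (21) numbered 3, 3, 3 and 37 under these 4 scalings, 10 with the methods' t-test, 11 at a fold of 2 in signal and 6 to 36 with 1 array left out, lowest without control replicate 1, 11 without control replicate 2 or 3 and highest without *Mef2c*-deficient replicate 1, and those called higher (0) numbered 2, 2 and 1 under the quantile, loess and housekeeping scalings and 0 to 1 with 1 array left out. *Aurka* turned to 0.44, 0.56 and 0.35 and *Cdc20* to 0.35, 0.40 and 0.20 under the same 3. *Bub1b* also lost its call without control replicate 1 and at a fold of 2 in signal. For *Mef2c* the log2 fold change missed the call at −0.43, −0.32 and −0.54 under the quantile, loess and housekeeping scalings, at −1.26 with array weights and at −1.34 with a fold of 2 in signal, and it was −1.48 to −1.20 with 1 array left out. Of all probe sets, 3206 were called lower, with 1832, 1832 and 754 under the quantile, loess and housekeeping scalings, 1934 with the t-test, 2025 at a fold of 2 in signal and 2163 to 3661 with 1 array left out. Those called higher (2401) numbered 1591 with loess, 1558 with median centring, 10916 with housekeeping centring, 1460 with array weights, 1368 with the t-test, 1123 without dim probe sets, 1089 at a fold of 2 in signal and 1404 to 4389 with 1 array left out, lowest without control replicate 3 and highest without *Mef2c*-deficient replicate 2. The share of lower among all calls was 57.2%, against 49%, 53.5%, 75.1% and 6.46% under the quantile, loess, median and housekeeping scalings, and the median log2 fold change of all probe sets shifted by −0.16, −0.18, −0.23 and 0.80. Median and housekeeping centring move the log2 fold changes of all probe sets alike, by the −0.23 and 0.80 given. Of the 8 housekeeping genes used for this, 5 were themselves called lower before centring. The cause of the other changes was not tested. The labels do not say whether replicate numbers pair the samples. Deviations from the group mean correlated at 0.10 and −0.03 between arrays of the same number, which cannot decide it. With 2 *Mef2c*-deficient arrays their deviations are equal and opposite, so these are not separate checks. With the number as a replicate block 3 members and 2184 probe sets were called lower and 1022 higher. Its log2 fold changes repeat those without control replicate 3 (*Aurkb* −2.09 in both).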

Other observations

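Genes of DNA replication and of the general proliferation programme were also measured. Of 13 such genes 5 fell (38.5%, as in level group 9, and 13.5% of all probe sets), the replicative helicase subunits *Mcm3*, *Mcm5*, *Mcm6* and *Mcm2*, by 2.11, 1.96, 1.45 and 1.34 on the log2 scale, and *Mybl2*, a transcription factor of late cell cycle genes, by 1.46, and none of these 5 stayed called under the quantile, loess or housekeeping scalings. *Top2a*, the topoisomerase that untangles chromosomes before anaphase, and *E2f1*, the transcription factor of S phase entry, rose. These 2 of 13 stand beside 10.1% of all probe sets called higher. Both were called higher under all 4 scalings, but neither was with the replicate block or without *Mef2c*-deficient replicate 1, and *E2f1* also lost its call with the methods' t-test and without any 1 control array. *Top2a* measured 546.9 and 312.4 on the *Mef2c*-deficient arrays, against 103.5, 180.5 and 115.2 on the control arrays, a log2 fold change of 1.68 (SE 0.40, adjusted p = 0.108). *E2f1* measured 3523 and 1079 on the *Mef2c*-deficient arrays, against 497.4, 769.2 and 671 on the control arrays, a log2 fold change of 1.62 (SE 0.57, adjusted p = 0.151). *Top2a* was higher where the called members were lower, but its probe set was of low level, where probe sets rose as a rule. Level groups 5 and 6, with median values of 153 and 277, had median log2 fold changes of 0.47 and 0.36. Their upper quartiles were 0.99 and 0.94. The part of level in the rise of *Top2a* was not tested.

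Of 8 housekeeping genes 5 were called lower (62.5%), with a median of −1.09, close to that of the companion genes (−1.14). *Slc4a1*, an erythroid anion exchanger, measured 854.9 and 2188 on the *Mef2c*-deficient arrays, against 187.7, 207.9 and 233.6 on the control arrays.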
